A study of Mus musculus with 6 samples.

Results

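The S100 genes described here are 10 members of the mouse family of S100 calcium-binding proteins, namely S100a1, S100a3, S100a4, S100a6, S100a8, S100a9, S100a10, S100a11, S100a13 and S100a16. They were taken by symbol from a table of 54532 genes, in which each of the 10 had 1 row. They were chosen by their FPKM and log2 fold changes in the comparison below, whose results were already known, so their differences between groups are given as a description and no p-value is attached to them. The other 8 S100 genes of the mouse are given beside them.

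RNA was sequenced from 6 whole tumors of the BRAFV600EPTEN-/- melanoma cell line. In 3 of them the cells carried an active mutant of Gli2, a transcription factor of the Hedgehog pathway (labelled Gli2CA), and in the other 3 a non-targeted control (labelled NTC). Both kinds of cell were kept in 1 ug/mL puromycin, and 1000000 of them were injected into C57Bl/6 mice, whose immune system is intact, in a volume of 100 uL with matrigel. Tumors were taken at day 28, and the sources used here do not give the age and sex of the mice, the promoter behind the Gli2 construct or the number of cell clones. The labels do not say that each sample came from its own mouse, so the spread between samples may be technical in part.

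S100 proteins are small and bind calcium through EF-hand loops, and most work as dimers that grip a partner protein once calcium is bound. Inside cells they act on the cytoskeleton, on membranes and on annexins. Some are also released and act on receptors such as RAGE (Ager) and Toll-like receptor 4. S100a8 and S100a9 form the heterodimer calprotectin, abundant in neutrophils and monocytes, whereas S100a4 and S100a6 are made by many mesenchymal, melanoma and immune cells. In human pathology S100 staining is a routine marker of melanocytic tumors.

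Values are FPKM (fragments per kilobase of transcript and per 1000000 fragments), and fragment numbers are those computed back from FPKM. The totals computed back in this way were 16225469 to 22274107 fragments per library. They lie close to the sums over genes and need not equal the number of fragments sequenced. Gli2 itself stood at 3.22, 5.82 and 1.61 FPKM in the tumors labelled Gli2CA, against 8.88, 11.1 and 7.96 FPKM in the tumors labelled NTC, which goes against the label. The sources used here do not say whether the introduced Gli2 is counted under the mouse gene, and the groups are therefore called by their labels. Of the pigment genes that define melanocytes, Tyrp1 was listed at 0 in all 6 tumors and Tyr, Dct and Mlana stayed under a mean of 0.5 FPKM. The pigment gene Pmel was low but detected, at 0.673, 1.96 and 0.786 FPKM in Gli2CA, against 0.871, 1.17 and 1.49 FPKM in NTC. Sox10 reached 51.5 to 97.1 FPKM in tumors labelled Gli2CA and 83.7 to 177 FPKM in NTC tumors. Whole tumors hold host cells beside melanoma cells, so fewer cells of a type and less RNA per cell cannot be told apart.

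All 10 genes lie on mouse chromosome 3 (GENCODE M21 on GRCm38, the build used for every position here). The 8 from S100a1 to S100a9 on the map share a span of 185 kb (90511034 to 90695721), and S100a11 and S100a10 share a second span of 44 kb (93520488 to 93564643). The 2825 kb between the spans hold genes of the epidermal differentiation complex, a block with genes for the outer skin barrier. The stretches upstream of S100a4, S100a6, S100a8 and S100a9 are shown because these 2 pairs are set against each other below. Each is part of RefSeq's promoter window on GRCm38.p6, holds no annotated exon base (for S100a8 this leaves out the part with its TATAAA), and is written 5′ to 3′ on the gene's own strand. Capitals mark a match to TATAAA (the TATA box) or to TTGCNNAA (a core of C/EBP sites, factors of myeloid genes).
S100a4, chr3:90603520-90603769, plus strand: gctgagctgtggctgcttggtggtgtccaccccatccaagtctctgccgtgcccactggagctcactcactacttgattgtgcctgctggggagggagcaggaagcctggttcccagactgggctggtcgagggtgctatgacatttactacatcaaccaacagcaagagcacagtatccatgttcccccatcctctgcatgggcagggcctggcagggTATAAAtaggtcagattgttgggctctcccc
S100a6, chr3:90612644-90612881, plus strand: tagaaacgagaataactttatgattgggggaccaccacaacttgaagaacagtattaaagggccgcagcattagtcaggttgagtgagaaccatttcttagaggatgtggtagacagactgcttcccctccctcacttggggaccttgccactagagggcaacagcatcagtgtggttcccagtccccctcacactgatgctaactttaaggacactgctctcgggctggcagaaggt
S100a8, chr3:90668821-90668977, plus strand: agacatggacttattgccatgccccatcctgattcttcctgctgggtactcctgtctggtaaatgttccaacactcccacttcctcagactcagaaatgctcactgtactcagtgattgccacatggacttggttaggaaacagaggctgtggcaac
S100a9, chr3:90695722-90695971, minus strand: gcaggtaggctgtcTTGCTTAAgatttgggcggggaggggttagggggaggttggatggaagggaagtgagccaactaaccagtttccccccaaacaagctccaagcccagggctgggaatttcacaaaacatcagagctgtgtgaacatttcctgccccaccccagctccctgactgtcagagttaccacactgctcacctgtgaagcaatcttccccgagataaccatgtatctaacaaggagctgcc

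The TATAAA of S100a4 begins 31 bases upstream of the RefSeq start, and the TTGCNNAA match of S100a9 begins 236 bases upstream. Windows of 250 upstream bases were available for 9 of the 10 genes, all except S100a10, and were searched on both strands for 5 motifs. TATAAA stood in 3 genes (S100a3, S100a4 and S100a8) and in 12.4% of all 32851 mouse windows of that length. TGANTCA, the AP-1 motif, stood in S100a11 and S100a16 and in 6.75% of all windows. TTGCNNAA stood in S100a9 alone, against 9.56% of all windows, and ACGTG, the core of hypoxia response elements, in S100a11 alone, against 16.6%. GACCACCCA, the Gli motif, was in none of these 9 genes' windows and in 0.225% of all windows. Some members have several windows, and a match is a description of letters, not a site.

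The S100 genes described here had higher average levels in tumors labelled Gli2CA than in NTC tumors, from 1.45 times for S100a11 to 4.45 times for S100a4. All 10 passed the filter of a mean of 0.5 FPKM and all 10 had positive estimates, where 47.4% of the 15820 tested genes had one. Their median log2 fold change was 1.05, against -0.04 over all tested genes. However, 9 of the 10 have transcripts under 800 bases, a class of genes with a median of 0.48 and 77.5% positive estimates, and with the length trend of each library removed the median of the 10 was 0.69. In 6 of the 10 (S100a4, S100a6, S100a8, S100a10, S100a13 and S100a16) every tumor labelled Gli2CA lay above every NTC tumor, as in 15.9% of tested genes, and the other 4 overlapped. No member had every tumor labelled Gli2CA below every NTC tumor (17.9% of tested genes). The limma fit over all genes called 1 of the 10, S100a4, higher at an adjusted p under 0.05 and 0 lower, calls made for 0.265% and 0.0822% of tested genes. Since the members were picked with this contrast known, nothing is read from these counts. The S100a4 call was lost without NTC replicate 1 or 2, or any one of the Gli2CA replicates, and stayed without NTC replicate 3. In those 5 fits no member was called.

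**Figure D1:**
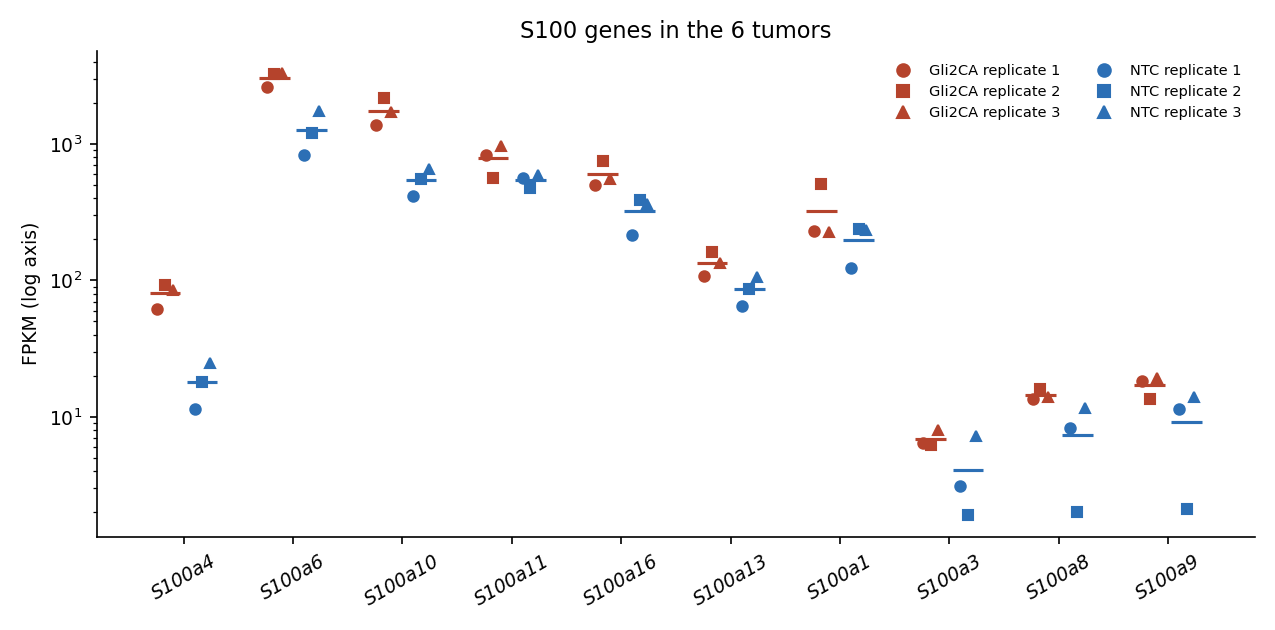
FPKM of the 10 S100 genes on a log axis, with 1 symbol per tumor (red, Gli2CA on the left; blue, NTC on the right) and a bar at the mean of 3. S100a4 shows the widest gap between the groups, at 62.0 to 93.1 FPKM in Gli2CA and 11.4 to 24.6 FPKM in NTC, and NTC replicate 2 is the lowest point for S100a3, S100a8, S100a9 and S100a11.

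S100a4, also known as metastasin or fibroblast-specific protein, binds non-muscle myosin and is linked to cell motility. It stood at 62.0, 93.1 and 85.5 FPKM in tumors labelled Gli2CA, against 11.4, 18.0 and 24.6 FPKM in NTC tumors. The groups lay far apart, the lowest tumor labelled Gli2CA being well above the highest NTC tumor. The values came from 508, 630 and 720 fragments in Gli2CA and 106, 159 and 182 in NTC, which gave a log2 fold change of 2.17 (SE 0.31, n = 3 each). The gene ENSMUSG00000001020 (90603771 to 90606045, plus strand) shares 51.7% of its exon bases with the overlapping predicted gene Gm42674, which is listed at 0 in all 6 tumors. The sources used here do not say how fragments in the shared exons were assigned, so the absolute level of S100a4 is uncertain.

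S100a6, or calcyclin, takes its second name from its rise in dividing cells. It had 2602, 3272 and 3323 FPKM in tumors labelled Gli2CA, against 829, 1206 and 1756 FPKM in NTC tumors, with a log2 fold change of 1.34 (SE 0.34, n = 3 per group). It was the most abundant of the 10 in every tumor, on 10691 to 38832 fragments. Within a tumor the FPKM of S100a4 was 0.0238, 0.0285 and 0.0257 of that of S100a6 in Gli2CA, against 0.0138, 0.015 and 0.014 in NTC. The ratio was therefore higher in all 3 tumors labelled Gli2CA, and the spread within each group was small beside the gap.

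S100a10 (p11) does not need calcium and pairs with annexin A2 at the plasma membrane. It had 1384, 2155 and 1722 FPKM in tumors labelled Gli2CA, against 418, 557 and 652 FPKM in NTC tumors (log2 fold change 1.69, SE 0.29, n = 3 per group). S100a11, a partner of annexin A1, lies next to it on the chromosome and had 828, 566 and 962 FPKM in Gli2CA, against 559, 478 and 589 FPKM in NTC. Here the groups overlapped, since Gli2CA replicate 2 lay below NTC replicate 3, with a log2 fold change of 0.51 (SE 0.28, n = 3 each). The 2 neighbours averaged 542 ± 118 and 542 ± 57.5 FPKM in NTC tumors (SD, n = 3 each), whereas in tumors labelled Gli2CA they averaged 1754 ± 386 and 785 ± 202 FPKM.

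S100a16, a widely expressed member, had 500, 751 and 553 FPKM in tumors labelled Gli2CA, against 216, 388 and 364 FPKM in NTC tumors. This was a log2 fold change of 0.92 (SE 0.30, n = 3 each), and the groups did not overlap. S100a13, which takes part in the release of proteins that lack a signal peptide, such as FGF1, had 107, 162 and 135 FPKM in Gli2CA, against 65.2, 86.2 and 106 FPKM in NTC (log2 fold change 0.66, SE 0.26). Its groups were apart by about 1 FPKM only, between Gli2CA replicate 1 and NTC replicate 3. S100a1, known for its part in muscle contraction, had 231, 511 and 226 FPKM in Gli2CA, against 123, 238 and 234 FPKM in NTC. The groups overlapped, Gli2CA replicate 2 stood alone at the top, and the log2 fold change was 0.65 (SE 0.39) with all tumors and 0.27 (SE 0.32) without that one.

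S100a1 and S100a13 lie head to head on opposite strands with 42 bases between their annotated starts, and their RefSeq promoter windows of 300 bases share 204. The annotated genes themselves do not overlap, and the sources used here do not give the strand setting. The FPKM of S100a1 was 2.16, 3.15 and 1.67 times that of S100a13 in tumors labelled Gli2CA, against 1.88, 2.76 and 2.21 times in NTC tumors. The ratio overlapped between the groups and was highest in replicate 2 of each. Summed FPKM of 8 skeletal muscle markers ran from 18.6 in Gli2CA replicate 2 to 1116 in Gli2CA replicate 1, and from 2.9 to 1584 in NTC. The part of muscle in the S100a1 values was not tested.

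S100a3 is best known from the hair cuticle and was the lowest of the 10 by average in both groups. It had 6.43, 6.24 and 8.0 FPKM in tumors labelled Gli2CA, against 3.09, 1.92 and 7.20 FPKM in NTC tumors. NTC replicate 3 lay among the tumors labelled Gli2CA, which left a log2 fold change of 0.86 (SE 0.40, n = 3 each), or 0.48 (SE 0.37) without NTC replicate 2.

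The calprotectin genes S100a8 and S100a9 were low in all tumors, and their difference between the groups rested largely on 1 NTC tumor. S100a8 had 13.4, 16 and 13.9 FPKM in tumors labelled Gli2CA, against 8.30, 2.02 and 11.7 FPKM in NTC tumors. S100a9 had 18.4, 13.5 and 19.2 FPKM in Gli2CA, against 11.5, 2.11 and 14 FPKM in NTC. NTC replicate 2 was far below the rest for both, on 21 fragments of S100a8 and 23 of S100a9, where the other 5 tumors had 91 to 200. The log2 fold changes were 1.21 (SE 0.51) for S100a8 and 1.17 (SE 0.57) for S100a9 (n = 3 per group). Without NTC replicate 2 they were 0.53 (SE 0.27) and 0.39 (SE 0.28). The 2 genes kept close to each other, with S100a9 at 0.843 to 1.38 times the FPKM of S100a8 in Gli2CA and 1.05 to 1.39 times in NTC.

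Setting the pairs against each other, the S100a4 and S100a6 pair differed between the groups by 1.75 on the log2 scale and the S100a8 and S100a9 pair by 1.19. Per tumor, the mean log2(FPKM + 0.5) of S100a4 and S100a6 was 8.66, 9.11 and 9.06 in tumors labelled Gli2CA, against 6.64, 7.23 and 7.72 in NTC tumors. That of S100a8 and S100a9 was 4.02, 3.93 and 4.08 in Gli2CA, against 3.36, 1.36 and 3.74 in NTC. Neither pair's mean overlapped between the groups. The log2 ratio of the first pair to the second was 4.64, 5.18 and 4.99 in Gli2CA, against 3.27, 5.87 and 3.98 in NTC. The ratio overlapped, because NTC replicate 2 had the highest value of all 6 tumors and the other 2 NTC tumors had the lowest. The difference in the ratio was 0.56, with a pooled SD between replicates of 0.97. It was 1.31 without NTC replicate 2 and 0.01 without NTC replicate 1, so these data do not fix whether the pairs shifted by different amounts.

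**Figure D2:**
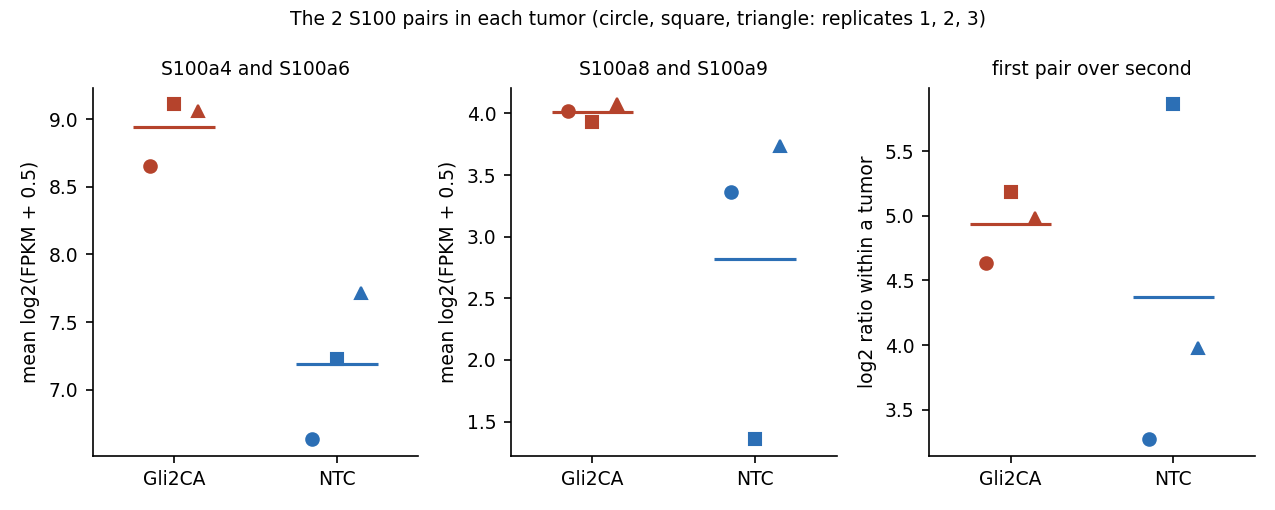
Mean log2(FPKM + 0.5) of S100a4 and S100a6 (left), of S100a8 and S100a9 (middle) and the log2 ratio of the first pair to the second (right), with 1 symbol per tumor and a bar at each group mean (n = 3, Gli2CA left of NTC). The first pair separates the groups, while in the ratio NTC replicate 2 at 5.87 lies above all tumors labelled Gli2CA.

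Neutrophil markers other than S100a8 and S100a9 did not move as one. Of 20 such genes 12 were tested, 6 with positive and 6 with negative estimates, and 0 passed in limma at an adjusted p under 0.05 (0.348% of all tested genes in either direction did). At an unadjusted p under 0.05 there were 3 of 12, against 27.5% of all tested genes. Trem1, a receptor that amplifies neutrophil and monocyte responses, had a log2 fold change of 1.42 (SE 0.32, limma adjusted p = 0.0679), and the lectin gene Clec4d had 1.25 (SE 0.32, limma adjusted p = 0.0798). Csf3r, the receptor for the neutrophil growth factor G-CSF, had -0.66 (SE 0.28, limma adjusted p = 0.171). Ly6g, the defining surface marker, was listed at 0 in 5 tumors and at 0.177 FPKM in NTC replicate 3, and the granule genes Camp, Ngp, Mmp8, Elane and Mpo stayed under the filter. The summed FPKM of the 20 markers was 83.1 to 124 in Gli2CA and 58.6 to 115 in NTC, lowest in NTC replicate 2, the tumor with the lowest S100a8 and S100a9. The part of neutrophils in the S100a8 and S100a9 values was not tested.

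**Figure D3:**
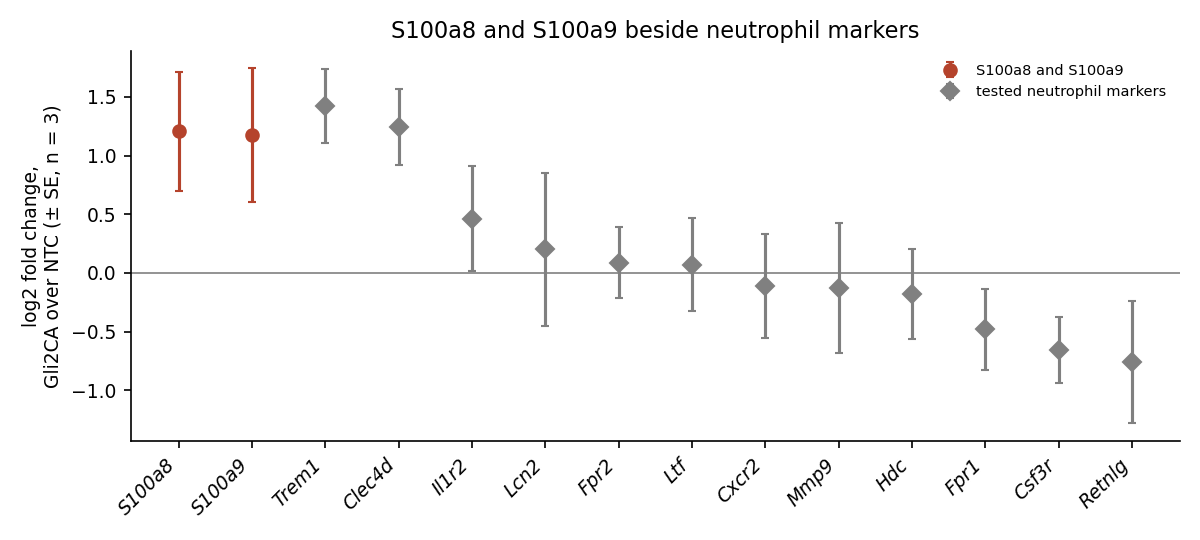
Log2 fold changes of S100a8, S100a9 and the 12 tested neutrophil markers, Gli2CA over NTC, with error bars of 1 SE from the limma fit (n = 3 per group). S100a8 and S100a9, at 1.21 and 1.17, stand near Trem1 and Clec4d, and the other markers lie on both sides of 0.

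Marker lists of other cell types differed in sign, and their part in the S100 values was not tested. Over all tested genes 12.8% were higher and 14.7% lower at an unadjusted p under 0.05. Of the 50 tested fibroblast, macrophage, T cell, endothelial, melanocyte and Schwann markers 33 have transcripts over 1482 bases, a class with a median log2 fold change of -0.24 and 33.6% positive estimates, whereas S100a4 and S100a6 are under 800 bases. All 12 fibroblast markers had negative estimates (median -0.67), 0 of them called by limma and 5 lower at an unadjusted p under 0.05. Col1a1, a chain of type I collagen, had 2242, 1298 and 977 FPKM in Gli2CA, against 13018, 3263 and 3467 FPKM in NTC, where the mean of 6583 FPKM was 3365 FPKM without replicate 1. The summed FPKM of the fibroblast markers was 6583 to 10121 in Gli2CA and 11582 to 34860 in NTC. Of 15 macrophage and monocyte markers 13 had negative estimates (0 called, 6 lower at an unadjusted p under 0.05), and their sums overlapped at 3312 to 4478 FPKM in Gli2CA and 4189 to 6138 FPKM in NTC. Csf1r, the macrophage growth factor receptor, had a log2 fold change of -1.43 (SE 0.29, limma adjusted p = 0.0642). Among T cell markers 6 of 7 had negative estimates, all 6 at an unadjusted p under 0.05, and all 5 endothelial markers did, 4 of them at an unadjusted p under 0.05 (0 called in either list). Of 9 melanocyte markers 5 were tested and all 5 had negative estimates, as did the 6 Schwann and glial markers, with 0 called and 3 and 1 lower at an unadjusted p under 0.05. All 8 skeletal muscle markers had positive estimates (median 2.10) and overlapped between the groups. Their summed FPKM was 1116, 18.6 and 396 in Gli2CA, against 3.69, 2.9 and 1584 in NTC. The highest sum was thus in an NTC tumor, and the positive estimates on the log scale rest on the low NTC replicates 1 and 2. The 5 adipocyte markers had 2 positive and 3 negative estimates. In both lists 0 were called and 0 were at an unadjusted p under 0.05.

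Of 11 keratinocyte and epithelial markers 5 were tested and 0 called, where 0.348% of all tested genes were called. At an unadjusted p under 0.05 limma had 2 higher and 1 lower, against 12.8% and 14.7% of all tested genes. The summed FPKM of the 11 markers was 50.2 to 130 in tumors labelled Gli2CA and 13.3 to 27.5 in NTC tumors. Krt14, a keratin of basal keratinocytes, stood at 16.9, 2.05 and 29.7 FPKM in Gli2CA, against 0.0318, 0.369 and 0.080 FPKM in NTC (log2 fold change 4.10, SE 0.78, limma adjusted p = 0.0565). Krt14 averaged 0.16 FPKM in NTC tumors, so it passed the filter of 0.5 FPKM only through the tumors labelled Gli2CA. Pkp1, which encodes a protein of desmosomes, had 105, 24.3 and 39.9 FPKM in Gli2CA, against 21.9, 15 and 4.31 FPKM in NTC (log2 fold change 1.996, SE 0.64, limma adjusted p = 0.102). Cdh1, the epithelial cadherin, went the other way, at 0.979, 0.351 and 0.741 FPKM in Gli2CA, against 1.44, 2.65 and 1.81 FPKM in NTC (-1.06, SE 0.33, limma adjusted p = 0.101). Krt10, another keratin gene, had 6.18, 22.5 and 6.84 FPKM in Gli2CA, against 3.79, 4.89 and 5.75 FPKM in NTC (0.99, SE 0.45, limma adjusted p = 0.19). Epcam overlapped between the groups (-0.29, SE 0.39). For Krt14, Pkp1, Krt10 and Cdh1 the groups did not overlap. Over all tested genes 15.9% had every tumor labelled Gli2CA above every NTC tumor, and 17.9% had every one below. The keratin gene Krt5 and the epithelial genes Trp63, Dsp, Krt1, Krt8 and Krt18 stayed under the filter. Keratinocytes also make several S100 proteins, and their part in the S100 values was not tested. Of 20 listed genes of the epidermal differentiation complex, none of them S100 genes, 19 lay under the filter and 6 of these at 0 in all tumors. The 1 tested gene, Crct1, stood higher, at 2.76, 10.1 and 8.5 FPKM in Gli2CA and 0.152, 0.562 and 0 FPKM in NTC (log2 fold change 3.27, SE 0.48, limma adjusted p = 0.0385). Crct1 averaged 0.238 FPKM in NTC tumors, so like Krt14 it passed the filter only through the tumors labelled Gli2CA. The filter thus favoured a higher value there, and the result for Crct1 is given as a description. Its adjusted p passed in 10 of 20 alternatives and ranged from 0.0126 to 0.205. Among fits without 1 tumor it passed only without Gli2CA replicate 1 (0.0205), and it was 0.0552 and 0.159 without Gli2CA replicates 2 and 3 and 0.15, 0.0955 and 0.0626 without NTC replicates 1, 2 and 3.

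Of the 8 other S100 genes, 3 passed the filter and limma called 0 of them, with 2 at an unadjusted p under 0.05. Over all tested genes these shares were 0.348% and 27.5%. S100a7a, the mouse relative of human psoriasin, had 5.68, 3.74 and 14.6 FPKM in tumors labelled Gli2CA, against 0.634, 1.54 and 0.956 FPKM in NTC tumors (log2 fold change 2.29, SE 0.46, limma adjusted p = 0.0632). S100a14, an epithelial member, had 3.15, 2.32 and 2.15 FPKM in Gli2CA, against 0.304, 0.503 and 1.14 FPKM in NTC (1.46, SE 0.34, limma adjusted p = 0.0692). Both were called in 3 of 20 alternatives (protein-coding genes rescaled, sample weights and the replicate block), with adjusted p from 0.0155 to 0.215 for S100a7a and from 0.0324 to 0.236 for S100a14. In both every tumor labelled Gli2CA lay above every NTC tumor, as in 15.9% of tested genes, and both lie inside the first span on chromosome 3. S100b, the member used most often as a melanoma and glial marker, lies on chromosome 10 and had 68.2, 139 and 60.3 FPKM in Gli2CA, against 95.1, 173 and 123 FPKM in NTC (-0.61, SE 0.36, limma adjusted p = 0.293). The groups overlapped, and the estimate was negative. S100a2, S100a5, S100a7l2, S100g and S100z were nearly silent, with 0 to 12 fragments summed over a group. The processed pseudogene S100a11-ps was listed at 0 in all 6 tumors.

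**Figure D4:**
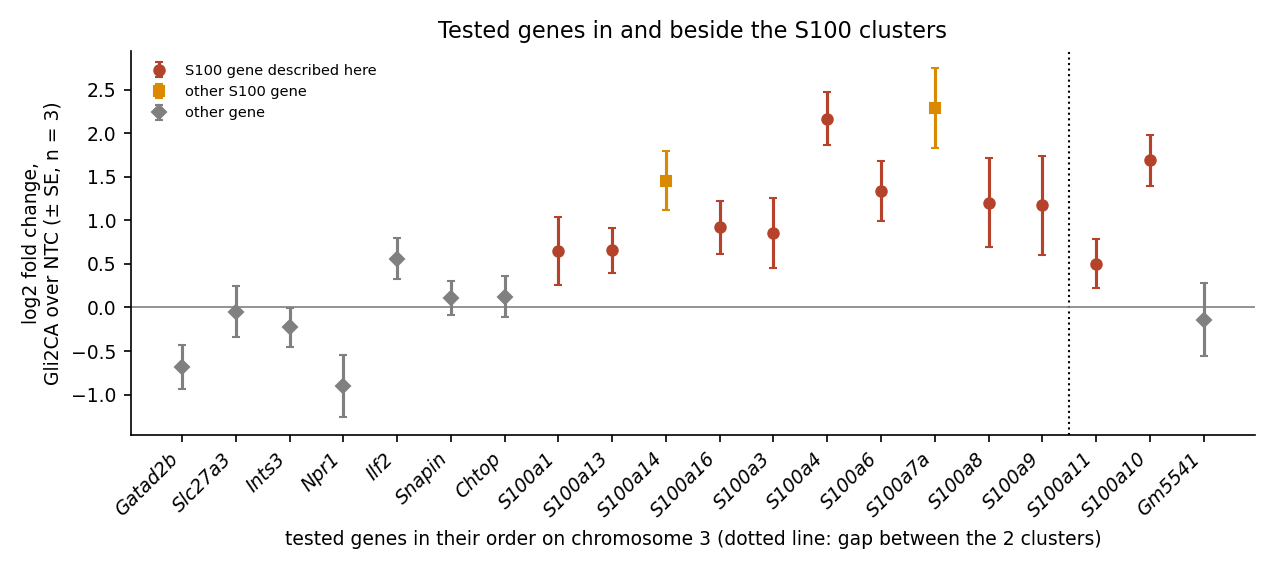
Log2 fold changes (Gli2CA over NTC, ± SE, n = 3 per group) of tested genes in and within 200 kb of the 2 S100 spans, in chromosome order. The S100 genes lie between 0.51 and 2.29, and the 8 other genes between -0.90 and 0.56. Most of the S100 genes shown were chosen by their fold changes in this comparison, so nothing is read from this gap. Most of the 8 other genes also have longer transcripts, and the part of length in the gap was not tested.

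The tested genes beside the clusters had estimates of both signs. Within 200 kb of the 2 spans, 8 further genes were tested, 3 with positive and 5 with negative estimates. Limma called 0 of them, where 0.348% of all tested genes were called. All but Gm5541 lie on the S100a1 side of the first span. Gm5541 lies beyond S100a10 and averaged only 0.495 FPKM in tumors labelled Gli2CA and 0.66 FPKM in NTC tumors. Ilf2, an RNA-binding factor, had 37.6, 39.4 and 46.6 FPKM in tumors labelled Gli2CA, against 21.9, 34.5 and 27.8 FPKM in NTC tumors (log2 fold change 0.56, SE 0.23, limma adjusted p = 0.164). Npr1, a natriuretic peptide receptor, had -0.90 (SE 0.36, limma adjusted p = 0.149). Snapin and Chtop, the last genes before S100a1, stood at 0.11 (SE 0.20) and 0.13 (SE 0.23).

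Gene length moved with these results. Mean annotated transcript lengths of the 10 S100 genes were 417 bases for S100a4 to 1482 bases for S100a3, and 9 of the 10 were under 800 bases. There were 2497 tested genes under 800 bases and 8644 over 1482 bases. With the length trend removed, all 10 estimates stayed positive. S100a4 then had a log2 fold change of 1.62 (SE 0.21), S100a10 of 1.22 (SE 0.19) and S100a6 of 0.86 (SE 0.25). S100a16 had 0.57 (SE 0.21), S100a11 had 0.01 (SE 0.33), S100a1 had 0.19 (SE 0.28) and S100a13 had 0.26 (SE 0.17), and S100a8 and S100a9 stood at 0.70 (SE 0.53) and 0.68 (SE 0.63). S100a3, the longest, hardly moved, at 0.87 (SE 0.40). RNA quality was not measured in the files, and its part in the trend was not tested.

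**Figure D5:**
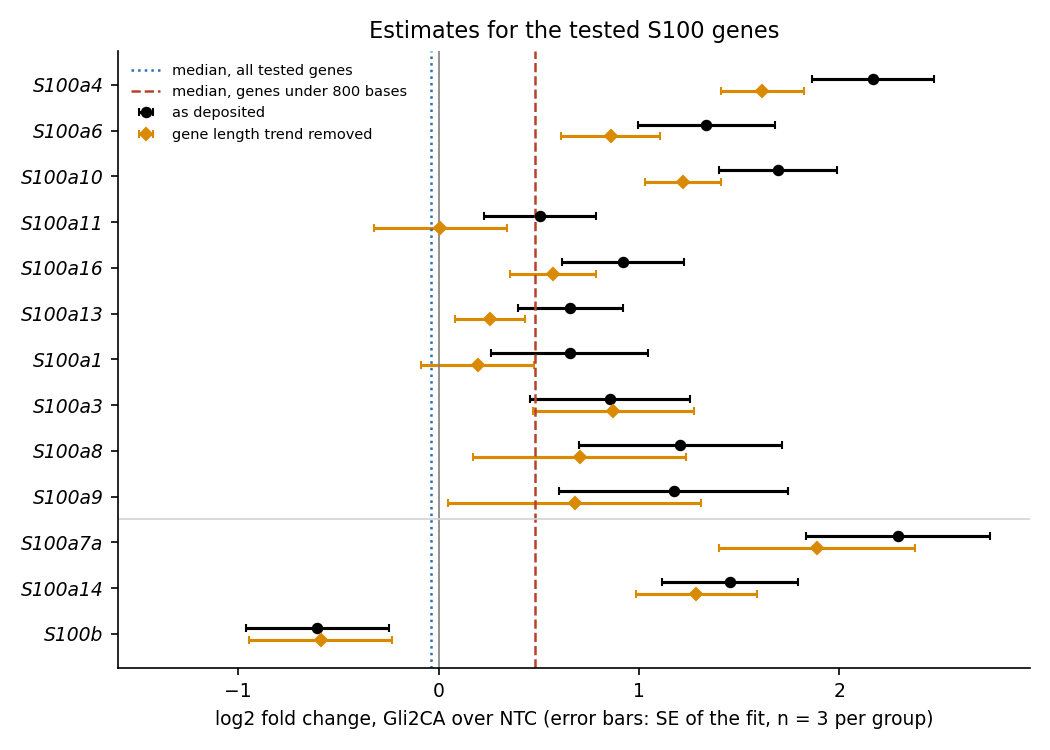
Log2 fold changes (Gli2CA over NTC, error bars 1 SE, n = 3 per group) of the 13 tested S100 genes as deposited (black) and with the gene length trend removed (orange). The dotted line marks the median of all tested genes (-0.04) and the dashed line that of genes under 800 bases (0.48), and after removal S100a11 sits at 0.01 while S100a4 stays at 1.62.

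The extremes of the 10 S100 genes fell in the same 4 tumors. The genes were chosen by this comparison, so highs in tumors labelled Gli2CA and lows in NTC tumors follow largely from that choice. The length trend was not removed from the values below. Relative to its own mean over the 6 tumors, each gene was highest in Gli2CA replicate 2 (6 genes) or Gli2CA replicate 3 (4 genes), and lowest in NTC replicate 1 (6 genes) or NTC replicate 2 (4 genes). The median deviation of the 10 genes was 0.40, 0.76 and 0.61 in Gli2CA replicates 1 to 3, against -0.82, -0.73 and -0.08 in NTC replicates 1 to 3. NTC replicate 3 was thus the control tumor nearest to those labelled Gli2CA, with 4 of the 10 genes above their own mean, and without it the median log2 fold change of the 10 was 1.46.

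Genes encoding the binding partners of these proteins had estimates of both signs. Limma called 0 of the 10 annexin, 18 intracellular partner and 9 receptor genes tested, where 0.348% of all tested genes were called, and at an unadjusted p under 0.05 the share over all genes was 27.5%. Of 10 tested annexin genes limma called 0, with 6 positive and 4 negative estimates (median 0.15) and 1 at an unadjusted p under 0.05. Anxa2, the partner of S100a10, had 1761, 719 and 1802 FPKM in tumors labelled Gli2CA, against 887, 751 and 906 FPKM in NTC tumors (log2 fold change 0.64, SE 0.38, limma adjusted p = 0.3). Gli2CA replicate 2 had the lowest Anxa2 of all 6 tumors and the highest S100a10. Anxa1, the partner of S100a11, overlapped at 2250 ± 496 FPKM in Gli2CA and 1931 ± 485 FPKM in NTC (SD, n = 3 each), and Anxa11, a partner of S100a6, had a log2 fold change of -0.80 (SE 0.37, limma adjusted p = 0.194). Anxa3 stood at 0.86 (SE 0.21, limma adjusted p = 0.0725), and Anxa6 at -0.58 (SE 0.28).

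Of 18 tested intracellular partners 0 were called, 2 were higher and 4 lower at an unadjusted p under 0.05, and the median log2 fold change was -0.18. Cacybp, the calcyclin-binding protein, had 158, 132 and 229 FPKM in tumors labelled Gli2CA, against 71.1, 106 and 114 FPKM in NTC tumors (0.82, SE 0.29, limma adjusted p = 0.117). Myh9, the heavy chain of the myosin that S100a4 binds, overlapped and had -0.82 (SE 0.40, limma adjusted p = 0.21), and its relative Myh10 had -1.27 (SE 0.29, limma adjusted p = 0.068). The large scaffold gene Ahnak, which binds the S100a10 and annexin A2 complex, had 0.11 (SE 0.22). Mdm2, the p53 ligase, had 0.77 (SE 0.21, limma adjusted p = 0.0841), and Rela had -0.80 (SE 0.28). Tpr had -0.70 (SE 0.24) and was counted in this list, though no source used here names it as an S100 partner.

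Of 9 tested receptor genes 0 were called, with 1 higher and 1 lower at an unadjusted p under 0.05. Ager, which encodes RAGE, was low at 0.790, 4.2 and 0.736 FPKM in tumors labelled Gli2CA, against 0.364, 1.60 and 0.952 FPKM in NTC tumors. Its groups overlapped (log2 fold change 0.50, SE 0.56, limma adjusted p = 0.576). Tlr4 had 34.5, 23.5 and 38.1 FPKM in Gli2CA, against 27.8, 26.9 and 25.7 FPKM in NTC (0.22, SE 0.24, limma adjusted p = 0.555), and its co-receptor gene Ly96 had 0.47 (SE 0.25). Bsg, the S100a9 receptor also called EMMPRIN, had 1019, 657 and 838 FPKM in Gli2CA, against 533, 558 and 556 FPKM in NTC (0.59, SE 0.26, limma adjusted p = 0.179). Alcam stood at 0.67 (SE 0.30), and Fgfr1 at -0.93 (SE 0.33, limma adjusted p = 0.124).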

How the data were processed

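The deposited table gives FPKM for 54532 genes in 6 tumors, 1 column per sample, made by the authors; no source used here gives the aligner, counter, annotation, build or strand. Per the labels' protocols, libraries came from poly-T purified mRNA and random hexamer primers. Columns were matched to samples by the names in the labels, and identifiers to GENCODE M21 (GRCm38), which gave a symbol for 54495 genes; S100a7l2 was found by its RefSeq synonym. FPKM times the mean annotated transcript length came out as whole fragments, to within 0.1, once divided by a constant of each library for 97% or more of low values, where chance gives 20%, which gave fragments per gene. The test was limma 3.58.1 (lmFit, eBayes with a variance trend, R 4.3.3) on log2(FPKM + 0.5), two-sided, for genes with a mean of at least 0.5 FPKM, with Benjamini-Hochberg adjustment over all of them with calls at 0.05. Differences are on that log2 scale, which understates low genes. Limma-voom on those fragments, scaled by library totals, was an alternative. The fit was also run on simulated fragments with the same dispersion for all genes, no length trend and no outlying tumor. That run therefore does not speak to these features of the data.

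The members and lists were chosen with earlier results of these data known. Genes named are all S100 genes, Gli2, up to 4 members of each list with the smallest p, 8 partners by role, and the 3 protein-coding genes of at least 5 FPKM nearest in pattern to S100a4, S100a6, S100a8 and S100a9. S100a2, Epcam, Pmel, the genes beside the clusters, and the markers named as low were picked after their values were seen. Other steps used Python 3.11.15 (pandas 2.3.3, numpy 2.4.6, matplotlib 3.10.9).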

Additional observations from a re-analysis of the deposited data

How the results depend on the processing

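With 3 tumors per group, counts of calls rest on few libraries. Under all 20 alternatives the 10 S100 genes kept positive estimates, and S100a4 was called in 14 of 20, S100a10 in 8, S100a6 in 2 and S100a16 in 1, the other 6 in 0. Limma called 55 of all genes (42 higher, 13 lower), 145 with a filter at a mean FPKM of 1 (76 higher, 69 lower), 3 without a filter, 36 with quantile normalization, 101 with robust eBayes, 1588 with sample weights (704 higher, 884 lower), 23 with the gene length trend removed and 106 with limma-voom scaled by library totals (51 higher, 55 lower). Limma-voom was first run with trimmed-mean scaling, which gave fewer calls and none among the 10 S100 genes; the scaling was changed after that result was seen. With protein-coding genes rescaled limma on FPKM called 736 (106 higher, 630 lower), a setting that moves the median of all genes to -0.29 and that of the S100 genes to 0.85. Leaving out 1 tumor gave 4 to 119 calls. Genes of the lists (other S100 genes, partners, epidermal genes and markers) were called in 1 case (Crct1), and in 2 with a pseudocount of 0.1 or the filter at 1, 13 with protein-coding genes rescaled, 21 with sample weights, and 0 without a filter, with median-ratio or quantile scaling, with the length trend removed and with limma-voom, or 0 to 1 without 1 tumor. The median log2 fold change of the S100 genes was 0.691 with the length trend removed, with or without the block, and 0.745 to 1.463 without 1 tumor. The difference in the pair ratio ran from 0.01 to 1.31 without 1 tumor. The cause of these shifts was not tested.

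The labels do not say whether the replicate numbers pair the tumors. Deviations from group means correlated at 0.353, 0.221 and 0.0237 for numbers 1, 2 and 3, against -0.285 to 0.0776 between unlike numbers. The values for numbers 1 and 2 lay above all of those between unlike numbers, and the value for number 3 did not. A pairing is therefore neither given nor settled here. With a replicate block limma called 1928 genes (901 higher, 1027 lower), with 23 in the lists and 4 of the 10 S100 genes (S100a4, S100a6, S100a10, S100a16); the 23 include S100a7a and S100a14. With the block and the length trend removed it called 1675, with 19 in the lists and 2 of the 10 S100 genes.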

Other observations

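Among 9806 other protein-coding genes of at least 5 FPKM, those nearest in pattern to each S100 gene were ranked by the root mean square difference between log2 values, each taken relative to its own mean over the 6 tumors. For S100a4 these were Cks2, a cell cycle kinase subunit, at 0.19, Tex30 at 0.24 and S100a10 at 0.28. For S100a6 they were Ak6 at 0.12, Ms4a6b at 0.12 and Chac2 at 0.12. For S100a8 they were Cxcl5, a neutrophil-attracting chemokine, at 0.20, S100a9 at 0.26 and Hsd11b1 at 0.29. For S100a9 they were S100a8 at 0.26, Cxcl5 at 0.27 and Hsd11b1 at 0.36. Cxcl5 averaged 15.9 FPKM in tumors labelled Gli2CA and 8.92 FPKM in NTC tumors. S100a6 was 33rd in likeness to S100a4, whereas S100a4 was 938th in likeness to S100a6, at the same difference of 0.42. The ranking rests on 6 tumors and is a description.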
